A study of Drosophila melanogaster with 10 samples.

Results

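Strains with whole chromosomes exchanged between a pair of parents allow a question that a simple comparison of parents does not: whether transcript levels depend on both large autosomes having the same origin. The arrays were therefore divided by whether the second and the third chromosome came from the same parent. Of the 10 arrays, 6 were matched in this sense, namely both arrays of the parent Fr, both arrays of the parent Z30, and the lines MZZ and ZMM. The other 4 were mismatched and came from the lines MMZ, MZM, ZMZ and ZZM. The rule used only the labelled origins and no measured value.

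Every array held head RNA from mated Drosophila melanogaster females 3 to 5 days old, pooled from 100 to 200 heads. In the name of a line, the 3 letters stand for the first chromosome (the X), the second and the third in that order, with Z for an origin in Z30 and M for an origin in Fr. Thus MZZ carried the first chromosome of Fr and both large autosomes of Z30, ZMM the reverse, and the mismatched lines carried 1 large autosome of each parent. No treatment was labelled, and the origins of chromosome 4 and the mitochondria were not labelled for any line. Each line had 1 array and each parent 2, and no label tells whether a parent's arrays were made from different cultures. The p-values therefore measure the spread among these arrays, which may be technical. Since all 4 parental arrays were matched, the matched group mixed parents with lines, and the comparison was repeated in the 6 lines alone. Among those 6, MZZ and ZMM were also the only lines whose first chromosome differed in origin from both large autosomes. In the lines alone, these descriptions cannot be told apart.

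Chromosome substitution separates the effect of a chromosome's own alleles from effects that depend on what else is in the genome. Regulators encoded on one chromosome act on genes of all others, and the products of both large autosomes meet in shared complexes such as the ribosome and the respiratory chain. A transcript whose level depends only on separate contributions of each chromosome shows no difference by matching once the origins are in the model, whereas a transcript that responds to particular combinations does. Fr and Z30 stand for the M and Z sides of a behavioural divergence between cosmopolitan and Zimbabwe flies, which is best known from mating preference.

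Technical measures were unevenly spread over the groups. Fr replicate 1 and Z30 replicate 1, both matched, had maximum signals of 26039 and 28895 against 46285 to 59814 on the other 8 arrays, and hybridisation control means of 651 and 538 against 1500 to 2179. Median rank correlations with the rest were 0.806 on Fr replicate 1, 0.785 on Z30 replicate 1 and 0.82 on the mismatched array MZM. The other 7 arrays had 0.89 to 0.915. Deviations ran with transcript length at rank correlations of -0.36 on Fr replicate 1, -0.24 on Z30 replicate 1 and -0.42 on MZM. On the other 7 arrays that correlation was -0.03 to 0.39. Of the markers of head tissue on the array, 3 of 3 for photoreceptors and 3 of 3 for glia lay above the signal floor throughout, but only 1 of 3 for neurons, whose summed signal ranged from 676 to 3174 on matched and from 972 to 3315 on mismatched arrays. The summed signal of the 4 muscle markers ranged from 11286 to 36372 on matched and from 25430 to 48620 on mismatched arrays, that of the 5 fat body markers from 81284 to 173716 and from 158661 to 183540, and that of the photoreceptor markers from 15178 to 31691 and from 23744 to 34449. Among the male reproductive markers, 4 of 23 on the array (Acp26Aa, Acp32CD, Acp36DE and ocn) were at the floor on all 10 and 6 lay above it on all 10. In pooled heads, fewer cells of a type and less RNA per cell cannot be told apart.

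No probe set passed the test for matching. With log2 signals of 8379 probe sets, the origins of the 3 chromosomes as covariates and limma's moderated test, 0 probe sets (0%) reached an adjusted p under 0.05, and the smallest adjusted p was 0.372. An unadjusted p under 0.05 was found for 341 probe sets (4.07%), of which 198 were higher (2.36%) and 143 lower (1.71%) in the matched group. Evenly spread p-values would place 5% of probe sets there. In the 6 lines alone, which leave 1 residual degree of freedom, the test again called 0 probe sets (0%), the unadjusted p was under 0.05 for 234 (2.79%, with 1.66% higher and 1.13% lower in the matched lines), and the smallest adjusted p was 0.172. On simulated data both fits made more false calls than the threshold allows, and the fit of the 6 lines more so, which bears on each call in the lines given below. The plot of p-values shows no excess at the low end in either comparison.

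**Figure D1:**
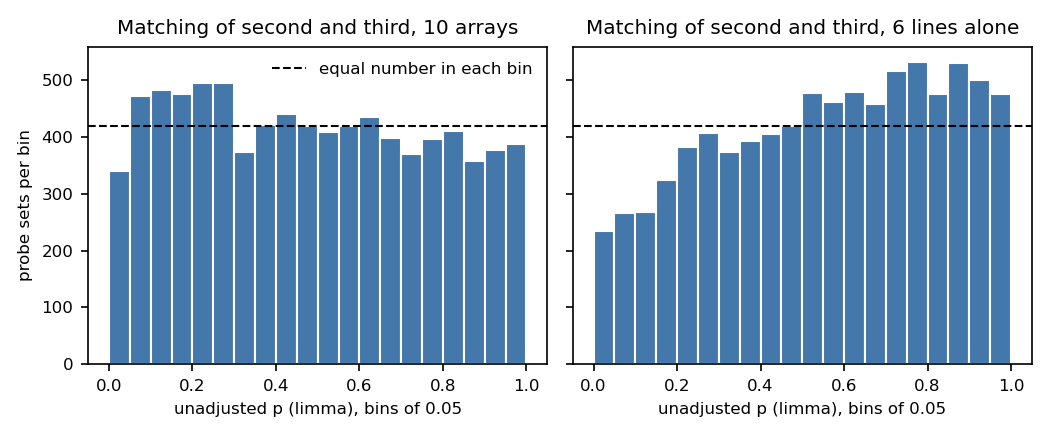
Number of probe sets (vertical axis) in each 0.05-wide bin of unadjusted p (horizontal axis) for the difference between matched and mismatched second and the third chromosome, in 10 arrays (left) and in the 6 lines alone (right); the dashed line marks equal bins. The lowest bin holds 341 probe sets on the left and 234 on the right, both below the line.

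Differences by matching were small beside their errors. The median size of the difference over all probe sets was 0.21 log2 units with a median standard error of 0.28 in the 10 arrays, and 0.20 with 0.36 in the 6 lines. Differences larger than 2-fold were seen for 114 probe sets (1.36%), 56 higher and 58 lower in the matched group, and for 126 probe sets (1.5%) in the lines. Without the filter on dim probe sets, 2 of 13966 (0.0143%) were called, CG4377 and CG10839, both with signals near the floor. At these errors, differences of the median size were not detectable. In the same model, and with the same median standard error of 0.28, the origin of the first chromosome had 7 calls, that of the second 3 and that of the third 6, and their unadjusted p was under 0.05 for 206, 337 and 371 probe sets. The number of probe sets at that level was therefore similar for matching (341) and for the origin of either large autosome, and the counts of calls were not tested against each other.

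Among the genes with the smallest p for a higher level in the matched group was CG34166 on arm 2L, for which no function is named here. Its signals were 7025 and 5290 in Fr, 2481 and 5858 in Z30, 3106 in MZZ and 5817 in ZMM, and 3482, 1058, 2446 and 1098 in MMZ, MZM, ZMZ and ZZM. The means were 4929 ± 1760 (SD, n = 6) and 2021 ± 1168 (SD, n = 4), and the groups overlapped because MMZ lay above Z30 replicate 1 and MZZ. The difference was 1.38 log2 units (2.61-fold, SE 0.25, limma adjusted p = 0.909), and 1.26 in the 6 lines (adjusted p = 0.54).

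The remaining genes of that kind covered endosome traffic, gluconeogenesis, sex determination, smell and stress signalling, each with an adjusted p of 0.909. puc, the phosphatase that restrains the JNK stress kinase, had signals of 696 and 812 in Fr, 1091 and 914 in Z30, 894 in MZZ and 732 in ZMM, against 542, 264, 502 and 653 in MMZ, MZM, ZMZ and ZZM. All matched arrays lay above all mismatched ones, the lowest by a narrow step, and MZM was by far the lowest array. The difference was 0.87 (SE 0.24, limma adjusted p = 0.909), and 0.54 without MZM. Ak6, an adenylate kinase of the nucleus, also showed no overlap, with a lowest signal of 297, a median of 356 and a highest of 490 on matched arrays against 254, 163, 210 and 171. Its difference was 0.89 (SE 0.24) in the 10 arrays, 0.83 in the lines and 0.91 without MZM, so that it did not rest on that array.

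dsx, the doublesex transcription factor that directs female and male differentiation, ranged from 240 to 523 on matched arrays and had signals of 251, 115, 161 and 151 on mismatched ones. Only MMZ among the mismatched arrays lay above the lowest matched array, which was MZZ. The difference was 1.16 (SE 0.3, limma adjusted p = 0.909), and 0.75 in the lines. Obp99a, an odorant-binding protein, had 5918 and 7028 in Fr, 2596 and 4633 in Z30, 1640 in MZZ and 3138 in ZMM, against 1476, 1226, 1507 and 2160. The parents carried much of that difference, which was 1.25 in the 10 arrays and 0.54 in the lines.

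Pepck1, the gluconeogenic phosphoenolpyruvate carboxykinase, differed by 1.47 (SE 0.37, adjusted p = 0.909), with a single low array, ZZM, at 198 while the other 9 lay between 1327 and 7058. Without ZZM its difference was 0.89. Vps60, a protein of the ESCRT-III family that remodels endosomal membranes, and nuf, which acts with recycling endosomes, differed by 0.96 and 0.93. A further probe set of nuf differed by 0.01, so the 2 probe sets of that gene disagreed. CG1468 differed by 1.28 and spoon, an anchor for protein kinase A, by 0.79.

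The genes with the smallest p for a lower level in the matched group included Arr2, the major arrestin of photoreceptors, which ends the activity of light-activated rhodopsin. Its signals were 16525 and 23754 in Fr, 19714 and 27611 in Z30, 28172 in MZZ and 25430 in ZMM, against 45374 in MMZ, 41287 in MZM, 42660 in ZMZ and 31103 in ZZM. All matched arrays lay below all mismatched arrays. The means were 23534 ± 4593 (SD, n = 6) and 40106 ± 6238 (SD, n = 4), the difference was -0.78 (1.72-fold lower, SE 0.19) and the limma adjusted p was 0.909. In the 6 lines the difference was -0.57 (SE 0.11, unadjusted p = 4.1e-05, adjusted p = 0.172). That value passed the threshold with a stricter filter on dim probe sets (adjusted p = 0.013) and with a pseudocount in place of the floor (adjusted p = 5.7e-04), and the difference in the 10 arrays was -0.6 without Fr 1 and Z30 1 and -0.39 after quantile normalization.

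Tret1-1, a transporter of trehalose, the main blood sugar of insects, had signals of 4815 and 6351 in Fr, 6696 and 7281 in Z30, 10449 in MZZ and 8793 in ZMM, against 11691, 13830, 11225 and 16064. The groups did not overlap, but the 2 matched lines lay between the parents and the mismatched lines. The difference was -0.86 (SE 0.21, limma adjusted p = 0.909) in the 10 arrays and -0.45 in the 6 lines. Its other tested probe set differed by -0.45 and by 0.19 in the lines.

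CG3857 on the X had signals of 365 and 296 in Fr, 694 and 780 in Z30, 271 in MZZ and 387 in ZMM, against 1629, 454, 1476 and 1229 in MMZ, MZM, ZMZ and ZZM. Of the mismatched arrays, 3 lay far above every matched array and MZM lay inside their range. The difference was -1.33 (2.52-fold lower, SE 0.28, limma adjusted p = 0.909), -1.73 in the lines (adjusted p = 0.46) and -1.55 without MZM. With the pseudocount the value in the lines was -1.6 with an adjusted p of 0.0108.

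Def, the antimicrobial peptide Defensin, had signals of 258 and 125 in Fr, 376 and 361 in Z30, 536 in MZZ and 367 in ZMM, against 819, 416, 1448 and 1344. It was highest in the 2 mismatched lines with the first chromosome of Z30. The difference was -1.55 (2.93-fold lower, SE 0.35, limma adjusted p = 0.909) and -1.02 in the lines. In the 10 arrays no other antimicrobial peptide gene tested had an unadjusted p under 0.05, and the list of 6 had 3 higher and 3 lower. In the lines 3 had one, all lower, namely Def, DptB (-1.05) and Mtk (-0.9), where 1.13% of all probe sets were lower at that level. The median of the list in the lines was -0.48. In the 10 arrays with a term for parents against lines, it ran from -1.25 without ZMM to 0.68 without MZZ. The list thus had no stable direction there.

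Structural genes made up much of the rest. Act79B, a muscle actin, ranged from 1788 to 6184 on matched arrays against 7273, 6803, 9110 and 5853, a difference of -1.22 (SE 0.34) that was -0.51 in the lines. Cpr100A, a protein of the chitin-based cuticle, differed by -1.94 (SE 0.56) and by -0.9 in the lines, and obst-A, a chitin-binding protein, by -0.89 and -0.81. The other 3 genes, CG13305, CG4239 and CG13428, differed by -0.73, -0.77 and -1.15, and for CG4239 the groups did not overlap. Across the 20 genes with the smallest p in the 2 directions, 5 had groups that did not overlap, which were Ak6, puc, Arr2, Tret1-1 and CG4239.

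**Figure D2:**
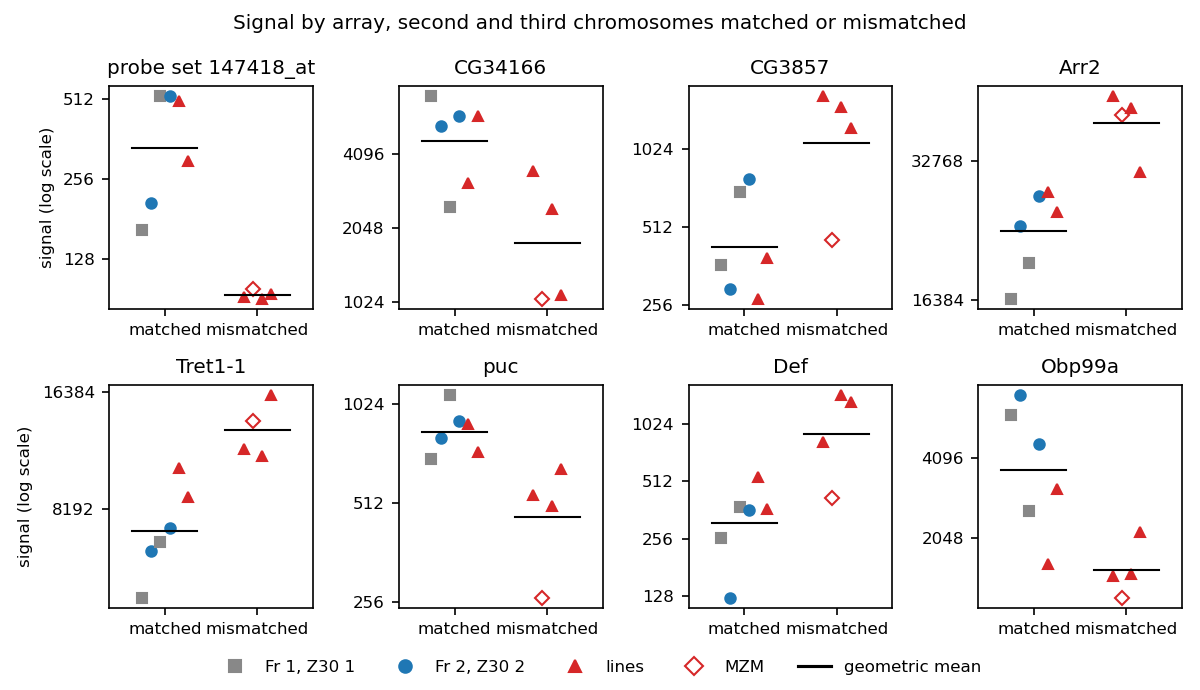
Signal on a log scale (vertical axis) on each of the 10 arrays for 1 probe set and 7 genes, by whether the second and the third chromosome were matched or mismatched; symbols separate the parental arrays, the lines and MZM, and bars are geometric means of 6 and 4 arrays. Groups do not overlap for probe set 147418_at, Arr2, Tret1-1 and puc, and MZM lies within the matched range for CG3857 and Def.

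Over all probe sets, the 6 matched and 4 mismatched arrays did not overlap for 120 (1.43%), with the matched arrays above for 51 (0.609%) and below for 69 (0.823%). The median gap between the groups was only 0.06 log2 units, and 1 probe set had a gap over 0.5. This was 147418_at, which has no gene in the annotation used and was singled out after its values were seen. Its signals were 165 and 208 in Fr, 527 and 526 in Z30, 507 in MZZ and 301 in ZMM, against 92.4 in MMZ, 99.3 in MZM, 91.2 in ZMZ and 94.6 in ZZM. The mismatched arrays lay within a narrow band while the matched arrays differed by the origin of their autosomes, with 3 arrays holding both from Z30 at 507 to 527 and 3 holding both from Fr at 165 to 301.

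The means for 147418_at were 373 ± 168 (SD, n = 6) and 94.4 ± 3.57 (SD, n = 4). The difference was 1.84 (3.57-fold, SE 0.26, limma adjusted p = 0.372) in the 10 arrays and 2.05 (adjusted p = 0.46) in the lines. It was 1.68 with the first chromosome from Fr and 2.1 with it from Z30, 1.92 without MZM and 1.93 without Fr 1 and Z30 1. With a pseudocount of 50 in place of the floor it passed the threshold in the lines, with an adjusted p of 0.0124.

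The probe sets with the matched arrays below were mostly bright. Of the 69, 37 belonged to the 838 brightest probe sets, where they made up 4.42%, against 0.477% in the next 3352 and 0.382% in the 4189 dimmest. Among those 838, 70.8% of the differences were negative with a median of -0.15, against a median of 0.03 over all probe sets. The median was -0.07 without Fr 1 and Z30 1, whose maximum signals were the lowest, and 0.02 after quantile normalization. In the 6 lines alone, 65.3% of the differences of those 838 were negative, with a median of -0.08. The part of this brightness shift in the gene lists below was not tested.

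Genes were then grouped by function, with each gene given by its brightest probe set; across the 40 lists with a tested gene the test called 0 members in either comparison. Over all 8379 probe sets, 4526 differences were positive and 3853 negative. Nuclear genes of oxidative phosphorylation encode most subunits of the respiratory chain and ATP synthase. Of the 55 tested, 50 had lower means in the matched group, both in the 10 arrays and in the 6 lines. Here and below, the comparisons share all mismatched arrays and both matched lines, so their counts are not independent. The median differences of the list were -0.29 and -0.20. The medians were 0.03 and 0.02 over all probe sets, and -0.15 and -0.08 over the 838 brightest. An unadjusted p under 0.05 was found for 7, all lower, where 1.71% of all probe sets were lower at that level. For 8 all matched arrays lay below, where 0.823% of all probe sets did, and 4.42% of the 838 brightest.

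One such gene was COX4, a subunit of cytochrome c oxidase, with signals of 13598 and 19332 in Fr, 13735 and 18795 in Z30, 20890 in MZZ and 19753 in ZMM, against 22110, 22032, 24183 and 23675. The 2 matched lines lay nearest to the mismatched arrays. The difference was -0.40 (SE 0.19, limma adjusted p = 0.909), and -0.18 in the lines. The remaining 7 were COX5A, COX8, UQCR-6.4, ATPsynE, ATPsyndelta, ATPsyngamma and ND-51, all named after their values were seen, with differences from -0.31 (COX8) to -0.51 (ATPsyngamma). ND-B14, a subunit of complex I with the smallest p of the list, differed by -0.45 (limma adjusted p = 0.909).

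For the list of oxidative phosphorylation as a whole, the median was -0.21 without Fr 1 and Z30 1, -0.28 without MZM, and -0.12 after quantile normalization in the 10 arrays. Here and below, a fit of the lines without MZM has no residual degree of freedom and gives ZMZ no weight. In the lines the median was -0.12 without MZM and -0.11 after quantile normalization. In the 10 arrays with a term for parents against lines, it ran from -0.41 without MZZ to -0.01 without ZMM. The median deviation from each gene's mean was 0.08, 0.34, 0.23 and 0.17 in MMZ, MZM, ZMZ and ZZM. On the matched arrays it was -0.21 and 0.05 in Fr, -0.39 and -0.10 in Z30, 0.10 in MZZ and -0.11 in ZMM. MZZ lay above MMZ, so even for this list the arrays overlapped.

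The lists of cytosolic ribosomal proteins and of glycolysis ran in the same direction with smaller medians. The female fat body list of 4 genes had a median of -0.43 in the 10 arrays. It was -0.14 without Fr 1 and Z30 1, 0.01 after quantile normalization and -0.09 in the lines. Of 32 cytosolic ribosomal protein genes, 27 were lower in the matched group with a median of -0.24, which was -0.10 without Fr 1 and Z30 1 and turned to 0.07 after quantile normalization. RpS20, whose 6 matched arrays at 20607 to 31802 all lay below the mismatched arrays at 34164 to 36860, differed by -0.38 and by 0.03 after that normalization. Of 15 genes of glycolysis and glycerol phosphate metabolism, 12 were lower with a median of -0.21, which was -0.09 without Fr 1 and Z30 1, -0.1 after quantile normalization and -0.08 in the lines. Tps1, which makes trehalose phosphate, had groups without overlap and a difference of -0.42 (SE 0.15, limma adjusted p = 0.909).

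In the lines, the sign was also uneven for the machinery of mitochondrial translation and protein breakdown. Of 63 mitochondrial ribosomal protein genes, 50 were lower in MZZ and ZMM, with a median of -0.16, but in the 10 arrays 33 were lower with a median of -0.02. Of 26 proteasome genes, 23 were lower in the lines with a median of -0.21, and 21 in the 10 arrays with a median of -0.09. Without MZM the median of the proteasome list was -0.14 in the lines and -0.02 in the 10 arrays. With a term for parents against lines, leaving out MZZ gave medians in the lines of 0.03 for the mitochondrial ribosome and 0.01 for the proteasome, and leaving out ZMM gave -0.32 and -0.4. Over all probe sets, 3981 of 8379 were lower in the lines.

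Genes of muscle, which moves the mouthparts and antennae in the head, had the most negative median of any list, -0.90 over 13 genes, of which 12 were lower in the matched group. Prm, the paramyosin of thick filaments, had signals of 564 and 4310 in Fr, 351 and 1266 in Z30, 6788 in MZZ and 3752 in ZMM, against 5988, 3390, 8002 and 7976. Fr 1 and Z30 1 were the lowest, and Fr 2, MZZ and ZMM lay within the range of the mismatched arrays. The difference of Prm, the lowest of the list, was -1.79 (SE 0.82, limma adjusted p = 0.909) in the 10 arrays and -0.25 in the lines. The median of the list was -0.39 without Fr 1 and Z30 1, -0.82 after quantile normalization and -0.10 in the lines, where it ran from -1.23 without MZZ to 1.07 without ZMM, so that it had no stable direction there.

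In the photoreceptor list, 11 of 15 genes of phototransduction were lower in the matched group with a median of -0.32, which was -0.19 without Fr 1 and Z30 1 and -0.14 after quantile normalization. Of these 1, Arr2, had an unadjusted p under 0.05 in the 10 arrays. In the lines Arr2 was the only gene lower at that level and 1 other gene was higher. Of all probe sets, 1.13% were lower and 1.66% higher there. Arr1, the other photoreceptor arrestin, differed by -0.33 (SE 0.19) in the 10 arrays and by -0.11 in the lines, where the Arr2 difference was -0.57. The light-gated channel gene trp differed by -0.55 and by -0.06 in the lines, and inaD, the scaffold that holds the channel with its regulators, by -0.18 and -0.01. The low p of Arr2 in the lines was thus not shared by the list, whose median there was -0.11 and 0.02 without MZM.

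Neuronal lists moved with single arrays. All 11 voltage-gated ion channel genes had higher means in MZZ and ZMM than in the mismatched lines, with a median of 0.43. Without MZM, in a fit that gives ZMZ no weight either, that median was 0.07. In the 10 arrays with a term for parents against lines it ran from -0.46 without MZZ to 1.33 without ZMM. Hk, the beta subunit of Shaker-type potassium channels, had signals of 1531 in MZZ and 2110 in ZMM, against 1388 in MMZ, 184 in MZM, 1724 in ZMZ and 1674 in ZZM. MZM was far below the other 5 lines, and ZMZ and ZZM lay between the matched ones. In the 10 arrays the median of the list was -0.23, with Fr 1 and Z30 1 as low as MZM, and -0.54 without MZM. The list of synaptic vesicle release had medians of -0.03 in the 10 arrays and 0.28 in the lines, and -0.05 in the lines without MZM.

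Sh, the Shaker potassium channel, had the lowest p of the ion channel list, with signals of 376 and 1215 in Fr, 344 and 961 in Z30, 512 in MZZ and 669 in ZMM, against 624, 95.9, 568 and 271. The difference was 0.98 (limma adjusted p = 0.909). The other 3 tested probe sets of Sh differed by -0.05, -0.01 and 0.04 in the 10 arrays, and so did not show it.

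**Figure D3:**
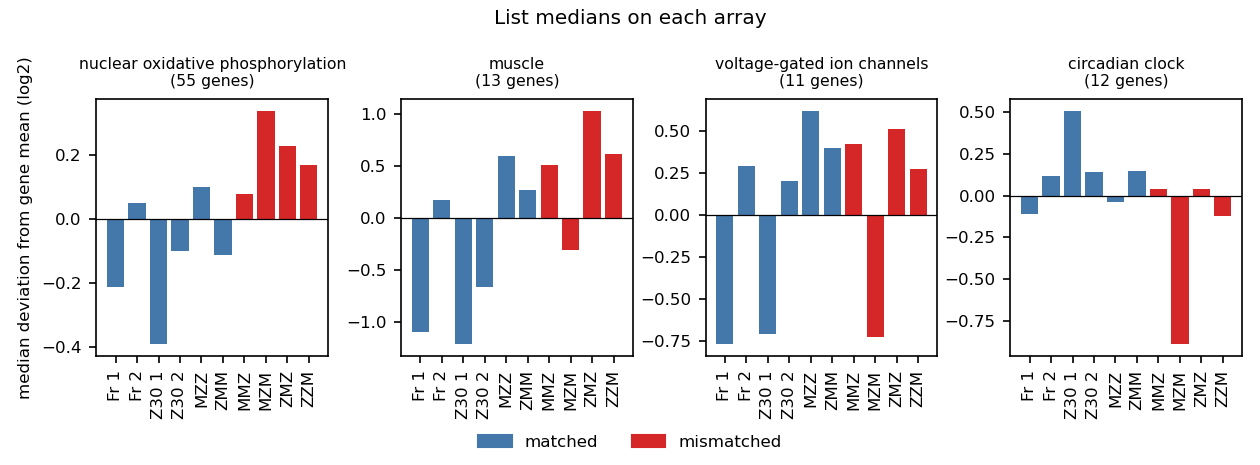
Median deviation of a list's genes from their own means over the 10 arrays, in log2 units (vertical axis), on each array (horizontal axis, matched arrays first), for 4 lists. Oxidative phosphorylation lies at 0.08 to 0.34 on mismatched arrays, muscle is lowest on Fr 1 and Z30 1, and MZM is the lowest array for the clock genes at -0.89.

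Of 12 circadian clock genes, 11 had higher means in the matched group, with a median of 0.17, and 2, tim and vri, had an unadjusted p under 0.05. tim, whose protein restrains the clock's own activator, had signals of 474 and 623 in Fr, 721 and 370 in Z30, 348 in MZZ and 762 in ZMM, against 286, 178, 332 and 503. ZZM lay above 3 of the 6 matched arrays. The difference was 0.79 (SE 0.28, limma adjusted p = 0.909), and a further tim probe set differed by -0.21.

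vri, a clock transcription factor, ranged from 1203 to 1998 in the parents and was 266 in MZZ and 972 in ZMM, against 488, 220, 784 and 517. Its difference of 1.23, the highest of the list, lay between parents and lines rather than with matching, and was 0.16 in the lines. The list as a whole had medians of 0.13 in the lines and 0.04 there without MZM. The hour at which the flies were collected was not used here.

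Cuticle proteins had 15 of 38 genes higher and a median of -0.09, which was -0.28 without Fr 1 and Z30 1. An unadjusted p under 0.05 was found for 5 of them, all lower, where 1.71% of all probe sets were lower at that level. They were Cpr100A, Acp1, Cpr92F, Cpr97Ea and Cpr97Eb, the last 4 named after their values were seen, with differences from -0.61 (Cpr97Ea) to -1.94 (Cpr100A).

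Of 58 cytochrome P450 genes, 30 were higher in the matched group with a median of 0.02. Cyp313a1 among them differed by 0.72 (SE 0.21, limma adjusted p = 0.909), with arrays holding the third chromosome of Fr highest in both groups. Glutathione S-transferases had 14 of 26 genes higher and a median of 0.04, and odorant-binding proteins 5 of 17 and -0.31. The last median was -0.12 without Fr 1 and Z30 1, -0.05 after quantile normalization and -0.11 in the lines. Glial genes had 4 of 9 higher, and the hexamerin and storage list 1 of 2, both with medians near 0. Of 11 sex determination genes, 8 were higher with a median of 0.11, and it was -0.07 without MZM. Genes for cuticular hydrocarbon synthesis, whose products are the contact pheromones of the fly, had 6 of 11 higher and a median of 0.01. Among 14 chromatin regulators 11 were higher with a median of 0.31, which was 0.13 without MZM and 0.04 in the lines without MZM.

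**Figure D4:**
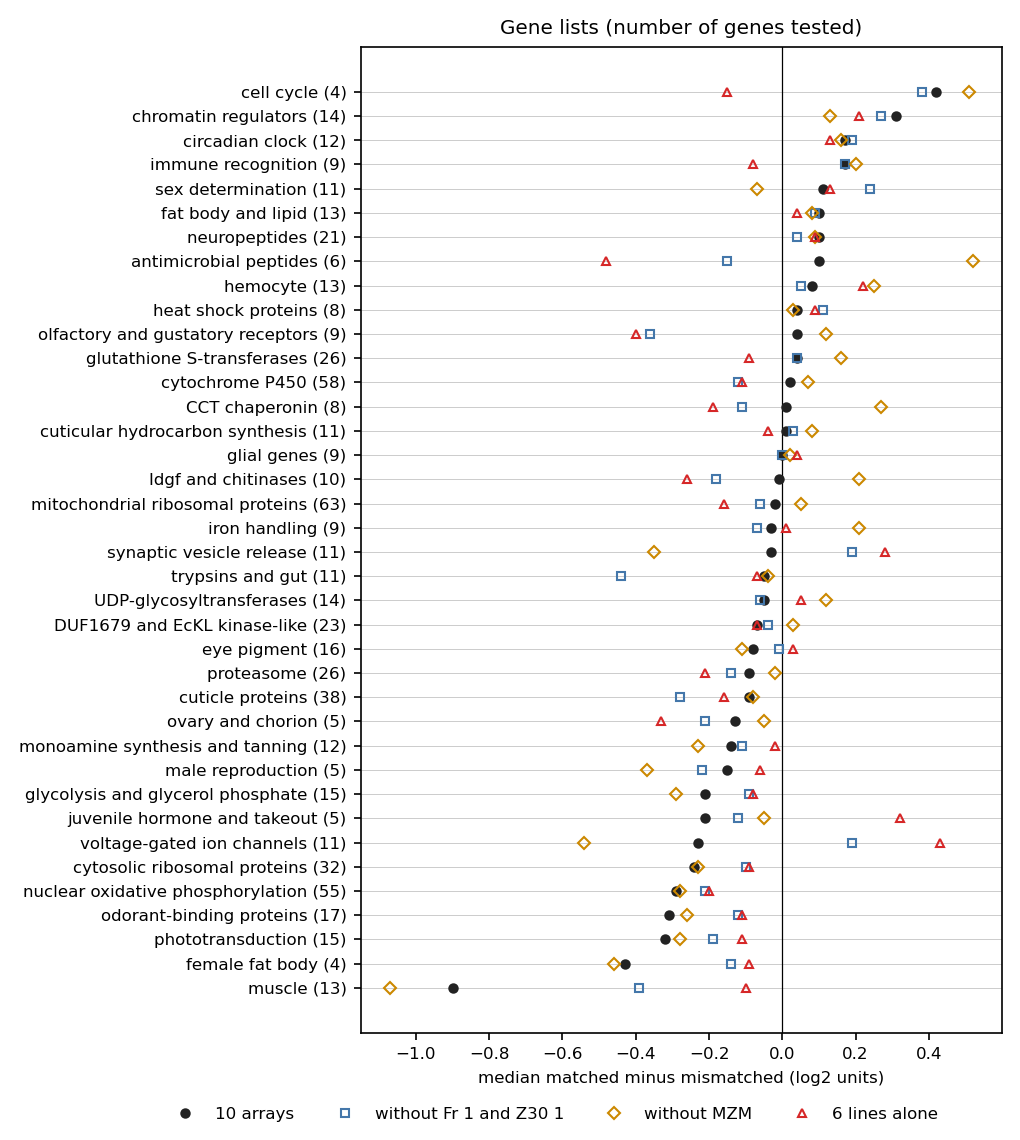
Median difference between matched and mismatched arrays in log2 units (horizontal axis) for each list with at least 4 tested genes (vertical axis, number of genes in brackets), in the 10 arrays, without Fr 1 and Z30 1, without MZM, and in the 6 lines alone. Muscle runs from -1.07 to -0.10 and voltage-gated ion channels from -0.54 to 0.43 across the 4 values, whereas oxidative phosphorylation stays between -0.29 and -0.20. With settings not plotted, the median of oxidative phosphorylation was -0.12 after quantile normalization of the 10 arrays. With a term for parents against lines it ran from -0.41 without MZZ to -0.01 without ZMM.

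In the 6 lines alone, the matched pair and the 4 mismatched lines did not overlap for 790 probe sets (9.43%), 383 (4.57%) with the matched pair above and 407 (4.86%) below. Beside CG34166, the genes with the smallest p for higher levels in MZZ and ZMM were trv, pAbp and Sec16. pAbp, the cytoplasmic poly(A)-binding protein, had 11625 and 9470 in MZZ and ZMM against 8461, 2204, 9135 and 5366, a difference of 0.93 (adjusted p = 0.882) that was 0.64 without MZM. Sec16, which organises exit sites of the endoplasmic reticulum, had 382 and 316 against 50.3, 50.2, 294 and 183. Its 2 low arrays were the mismatched lines with the first chromosome of Fr, and the difference was 1.69 (adjusted p = 0.999). trv had 726 and 416 against 442, 20.2, 663 and 94, with MZM under the signal floor of 38.9. Its difference was 1.6 in the lines, and a further trv probe set differed by 0.47 there. A further probe set of pAbp differed by 0.4 in the lines.

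On the lower side, Cyp4p1, a cytochrome P450, had signals of 2184 in MZZ and 600 in ZMM against 2658, 5277, 2312 and 3174, and 2422 to 3998 in the parents. Its difference was -1.48 in the lines (SE 0.3, limma adjusted p = 0.282) and -0.46 in the 10 arrays. nanos, a translational repressor best known from the germ line, had 43.3 in MZZ and 99.6 in ZMM against 208, 252, 263 and 234, while the parents lay at 145 to 261. Its difference was -1.86 in the lines (adjusted p = 0.687) and -0.75 in the 10 arrays. For both genes the matched parents had levels like those of the mismatched lines.

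Whether the difference by matching was the same on both backgrounds of the first chromosome was tested as an interaction. limma called 0 probe sets (0%), and the unadjusted p was under 0.05 for 177 (2.11%). The difference could also be estimated from 2 sets of arrays with none in common, from Fr, MZZ, MMZ and MZM with the first chromosome of Fr and from Z30, ZMM, ZMZ and ZZM with that of Z30, averaging the 2 arrays of a parent first. Across the 8379 probe sets, which are not independent replicates, Pearson's r between the 2 estimates was -0.04 and Spearman's rho -0.03, and 4125 (49.2%) had the same sign. Differences over 2-fold were found for 334 and 333 probe sets, of which 11 shared their direction (7 higher and 4 lower in both) and 20 were opposed.

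That agreement moved with the choice of parental arrays. With only the first array of each parent, which share the low maximum signals, r was 0.25 and 59.0% of signs were the same, and with only the second arrays r was -0.1 and 46.4%. With Fr 2 and Z30 1 it was -0.26. MZM belongs to one of the 2 estimates alone.

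Genes leading the interaction test by p had opposite values on the 2 backgrounds. CG10089 had signals of 354, 375 and 309 in Fr and MZZ against 39 and 79.7 in MMZ and MZM, and of 230, 219 and 314 in Z30 and ZMM against 340 and 325 in ZMZ and ZZM. It was thus low only in the mismatched lines with the first chromosome of Fr, among these 10 arrays. The matching difference was 2.59 on the Fr and -0.33 on the Z30 background, and these differed by -2.92 (SE 0.59, limma adjusted p = 0.999). Vinc, the focal adhesion protein vinculin, differed by 1.47 and -2.24. CG5707 differed by -0.98 and 1.1, and Vajk2, a cuticle protein, by 0.4 and -1.66, each with an adjusted p of 0.999. By contrast, CG34166 (1.18 and 1.52) and CG3857 (-1.53 and -1.34) had similar estimates on both. All these genes were chosen by p from the same arrays. Neither the opposite nor the similar estimates are independent of that choice.

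**Figure D5:**
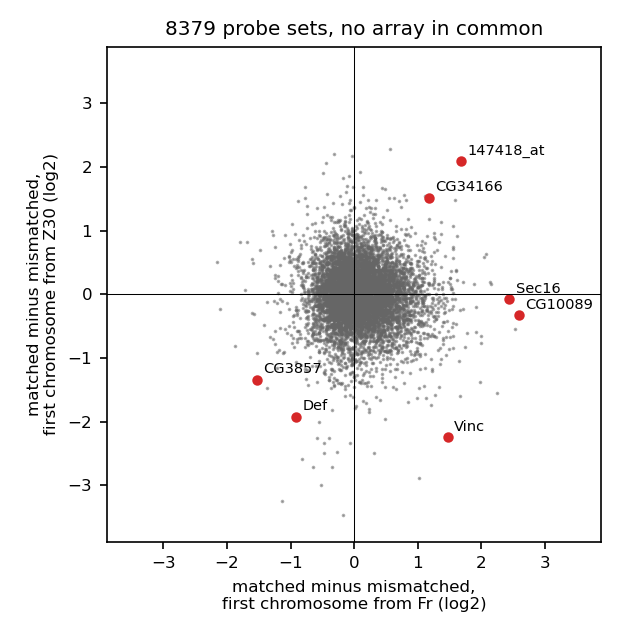
Difference between matched and mismatched arrays with the first chromosome from Fr (horizontal axis) and from Z30 (vertical axis), in log2 units, for each of 8379 probe sets; the 2 estimates share no array. The cloud shows no slope (r = -0.04), with 147418_at, CG34166, CG3857 and Def in agreeing corners and Vinc in an opposing one. The labelled probe sets were chosen from these same arrays, so their positions are not independent of that choice.

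The large chromosome arms had similar counts. The share of probe sets with an unadjusted p under 0.05 was 4.31% on 2L, 3.89% on 2R, 4.07% on 3L, 4.25% on 3R and 3.52% on the X, with medians from 0.00 to 0.05. Chromosome 4, the smallest, had 5 of 55 (9.09%) and a median of 0.20. These 5 genes, named after their values were seen, were CG11076, CG33941, apolpp, Taf3 and Sox102F, all with higher means in the matched group.

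Taf3, a subunit of the general transcription factor TFIID, had signals of 1374 and 1651 in Fr, 1953 and 1610 in Z30, 1753 in MZZ and 1749 in ZMM, against 1239 in MMZ, 387 in MZM, 1366 in ZMZ and 1338 in ZZM. MZM was by far the lowest array, and the other 3 mismatched arrays lay just under the matched ones. The difference was 0.79 (SE 0.27, limma adjusted p = 0.909). For chromosome 4 as a whole the median was 0.46 in the lines and 0.42 without Fr 1 and Z30 1, but -0.04 without MZM in the 10 arrays and 0.06 without it in the lines.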

How the data were processed

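Transcript levels were read from 10 oligonucleotide arrays of 14010 probe sets. The deposited values are linear intensity, 1 per probe set and array. How the authors made them is not given in the sources used here, but the 2% trimmed mean is 500.1 on every array, so each array had been scaled. That scaling was kept. After 44 control probe sets were left out, values under the pooled 20th percentile of 38.9 were set to it, log2 was taken, and probe sets at or under the 40th percentile of mean log2 were removed, which left 8379 of 13966. Of the non-control probe sets, 12443 had 1 gene, 327 several and 1196 none in the platform annotation, and 12394 symbols were updated through the RefSeq gene table. No probe set with several genes was named.

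The fit was limma 3.58.1 in R 4.3.3 with a mean-variance trend (2-sided tests), with the origins of the 3 chromosomes and matching as terms and Benjamini-Hochberg adjustment over all probe sets. A difference is matched minus mismatched in log2 units, and the balanced design makes it equal to the difference of group means. Values at the floor understate a change. The tests were tried on simulated data, where both fits, and the 6-line fit more so, made more false calls than the threshold allows. Fr 1 and Z30 1 were treated as an array batch because of their low signals, and no label names them as one. Precision is limited by the number of arrays. Groups came from the labels. The groups and the gene lists were chosen with earlier results of these data known, and wrongly matched entries (in the lists of cuticle proteins, hexamerins and glia) were removed after values were seen. Named genes were the 10 with the smallest p in each direction in the 10 arrays, 4 in each direction in the lines, the 4 leading the interaction test by p, and the leading member of each list. Prm, Hk, vri, Arr1, trp, inaD, DptB and Mtk were named outside that rule, with their values known. Alternatives changed the floor, filter, pseudocount, normalization, array weights and covariates, and left out arrays. No sequences were used.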

Additional observations from a re-analysis of the deposited data

Results flagged for a closer look

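Among 126 groups of named genes tested for an array far from the others, 3 held one, where chance gives about 1 in 20 groups. In the matched group, Cyp4p1 had a signal of 600 in ZMM, and the nearest array was MZZ at 2184. In the mismatched group, Hml, a hemocyte gene of blood clotting, had a signal of 80 in ZZM, and the nearest array was ZMZ at 848. In the matched group, Cp36, a chorion gene, had a signal of 74.9 in Z30 replicate 2, and the nearest array was MZZ at 190. None of the 3 was on Fr 1, Z30 1 or MZM.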

How the results depend on the processing

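The count of calls for matching in the 10 arrays was 0 under 24 of 25 alternatives and 2 with no filter on dim probe sets (CG4377 and CG10839, with differences of -0.64 and -0.74 and signals near the floor). In the lines it was 6 with a pseudocount of 50 and no floor (Arr2, CG3857, Cyp4p1 and 143443_at lower, Tmtc1 and 147418_at higher) and 1 with a filter at the 60th percentile (Arr2), in a fit that made more false calls on simulated data than its threshold allows. The interaction had 0 calls under every alternative run. With single arrays left out, the 10 arrays, the lines and the interaction had from 0 to 0 calls. The number at an unadjusted p under 0.05 ran from 107 without ZMZ to 1024 without MZZ in the 10 arrays, from 43 to 510 in the lines, and from 76 to 683 for the interaction. Values in the lines without MZM came from the lines that remained, with no residual degree of freedom and no weight on ZMZ. The other results in the lines with a line left out used the 10 arrays with a term for parents against lines. That term lowered 341 to 78, array weights gave 757 (their estimation stopped before convergence) and the array batch (Fr 1 and Z30 1, set apart by their values and not by a label) as a block 396. The parents share replicate numbers 1 and 2, but the arrays share only a number, and with that number as a replicate block there were 0 calls and 272 probe sets at an unadjusted p under 0.05.

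Signs turned for genes with small differences. RpS20 was 0.03 with quantile normalization. Lsp2 was 0.17 with the batch block and without Fr 1 and Z30 1, 0.1 with array weights, 0.07 without Fr 1, and 0.18 with the parents term, alone and with the block. bol was 0.08 with the batch block and without both arrays, 0.07 without ZZM, and 0.4 with the parents term, alone and with the block. nrv2 was -0.04 without MZM and -0.02 without MZZ, and Cp36 was 0.19 without ZMZ. With single arrays left out, Lsp2 ran from -0.7 to 0.07, bol from -0.59 to 0.07 and Cp36 from -1.02 to 0.19. In the lines, without MZZ, trv was -0.32, pAbp -0.01 and Sec16 -0.83. The causes were not tested. The other 1325 of 1340 values of single genes in the 10 arrays kept their sign and stayed over the threshold.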
